A study of Mus musculus with 8 samples.

Results

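Fabp7, Id4, Sox9, Ttyh1, Aldoc, Cpe and Cst3 are 7 genes by which astrocytes and their radial glia precursors are commonly recognised. They were taken by symbol from the probe annotation, and all 7 were found among 5822 named genes. The arrays held RNA of cultured cortical astrocytes from newborn mice. In the Cx43 KO group, arrays 1 to 4, the cells came from mice null for connexin43, the main gap junction protein of astrocytes. In the WT group, also arrays 1 to 4, they came from wild-type mice, for which the labels name C57BL/6j on WT 1. The title of Cx43 KO 3 gives the gene but not the word KO, and whether each array had its own culture or animal is not stated. The p-values therefore rest on array-to-array spread alone, and some or all of it may be technical. Every array compared its sample with a common RNA pool of 10 adult tissues, brain among them. Each value is therefore a log2 ratio of astrocytes over that pool, with base 2 assumed and the median ratio of an array set to 0, and it is not an amount of transcript. How far a gene's own level in the adult brain of the pool lowers its ratio was not tested.

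Astrocytes arise from radial glia, and the transcription factor Sox9 is needed for the switch from making neurons to making glia. Id proteins such as Id4 lack a DNA-binding domain and hold basic helix-loop-helix factors away from E-box sequences in promoters. Mature and cultured astrocytes carry a fatty acid binding protein, their own aldolase, and secreted peptidases and peptidase inhibitors.

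Promoter sequence was available for 5 of the 7 genes, and 3 windows are shown because Fabp7 lay furthest above the pool and because Ttyh1 and Aldoc varied together over the arrays. Each is the 250 bases before a gene start in RefSeq, build GRCm38.p6, plus strand, with matches to the E-box CANNTG in capitals, at chr10:57784673-57784922 for Fabp7, chr7:4119280-4119529 for Ttyh1 and chr11:78322823-78323072 for the first of 2 listed starts of Aldoc.
Fabp7: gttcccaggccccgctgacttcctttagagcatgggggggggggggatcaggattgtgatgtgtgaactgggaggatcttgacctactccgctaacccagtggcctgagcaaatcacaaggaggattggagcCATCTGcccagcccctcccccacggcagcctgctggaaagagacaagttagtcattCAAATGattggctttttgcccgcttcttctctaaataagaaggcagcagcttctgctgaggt
Ttyh1: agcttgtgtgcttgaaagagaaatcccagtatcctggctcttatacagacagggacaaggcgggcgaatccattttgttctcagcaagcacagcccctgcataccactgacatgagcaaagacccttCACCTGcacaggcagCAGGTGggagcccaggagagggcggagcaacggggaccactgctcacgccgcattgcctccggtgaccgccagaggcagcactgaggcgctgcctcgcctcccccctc
Aldoc: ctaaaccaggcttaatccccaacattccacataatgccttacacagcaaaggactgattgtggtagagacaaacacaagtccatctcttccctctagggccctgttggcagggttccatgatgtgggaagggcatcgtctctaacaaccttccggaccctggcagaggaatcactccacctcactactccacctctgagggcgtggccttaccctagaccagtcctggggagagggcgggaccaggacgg
The window of Fabp7 held 2 E-boxes, that of Ttyh1 held 2 and that of Aldoc 0. Of 32851 mouse windows of the same length 66.2% held at least 1, counted on both strands. The Sox core ACAAT, also searched on both strands, matched once before Fabp7 and Aldoc and was not found before Ttyh1, against 27.7% of all windows. The window of Cst3 held 1 E-box and that of Id4 none.

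Before any comparison, array Cx43 KO 4 has to be set apart. All 7 genes had their lowest ratio there, 5 of them out of 8 values and Id4 and Sox9 out of 7, while 22.5% of named genes with at least 7 values were lowest on that array. The mean of the 5 genes with 8 values was 1.76, 1.87, 1.88 and 0.50 on Cx43 KO 1 to 4, against 1.57, 1.75, 1.72 and 2.00 on WT 1 to 4. Cx43 KO 4 thus lay more than 1 log2 unit below every other array, and the remaining 7 arrays lay within a narrow band. The array was not thin in data, with a ratio for 5042 of 9568 features, where the other arrays had 3506 to 5514. It did have the lowest weight in a fit with array weights, at 0.320, where the other arrays had 0.740 to 1.735. Its values thus lay furthest from the fit over the whole table, not only for the 7 genes. The genotype differences and correlations of the 7 genes are therefore also given without Cx43 KO 4. As each gene was lowest there, leaving that array out had to raise each Cx43 KO mean and each difference from WT. Such rises are no result by themselves.

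**Figure D1:**
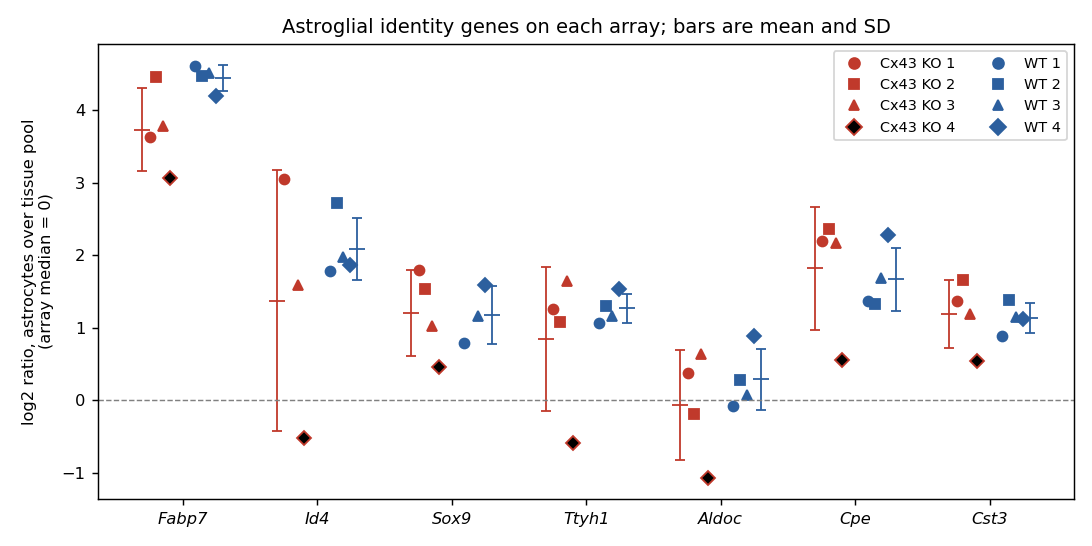
Log2 ratio of astrocytes over the tissue pool for each gene (vertical axis, array median at 0) on the 4 Cx43 KO arrays (red, left) and the 4 WT arrays (blue, right), with mean and SD of each group. The black diamond, Cx43 KO 4, is the lowest point of all 7 genes.

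Among the transcription regulators, Id4 showed the widest spread. Its ratio was 3.05, 1.58 and -0.52 on Cx43 KO 1, 3 and 4, with no ratio on Cx43 KO 2, against 1.78, 2.71, 1.98 and 1.86 on WT 1 to 4. The highest and the lowest of the 7 values were both Cx43 KO arrays, on either side of the WT range. Sox9, the HMG-box factor of glial fate, was at 1.79, 1.53, 1.02 and 0.46 on Cx43 KO 1 to 4, against 0.79, 1.16 and 1.59 on WT 1, 3 and 4, with no ratio on WT 2. Its ranges overlapped, with Cx43 KO 1 highest and Cx43 KO 4 lowest. Both missing values fell on lot batch 2, a number in the labels that equals the array number and joins 1 array of each genotype.

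Fabp7, which carries long-chain fatty acids in radial glia and astrocytes, had the second highest mean ratio of 2163 named genes with 8 values. It lay at 3.63, 4.45, 3.78 and 3.06 on Cx43 KO 1 to 4, against 4.61, 4.47, 4.51 and 4.19 on WT 1 to 4. Averaged over arrays, this was 13.3-fold above the array median in Cx43 KO and 21.8-fold in WT. The lowest WT array stood above Cx43 KO 1, 3 and 4, whereas Cx43 KO 2 lay inside the WT range. Within lot batches 1 to 4, Cx43 KO minus WT was -0.98, -0.020, -0.73 and -1.13. It was below 0 in 4 of 4 lot batches, as in 8.55% of named genes with 8 values, although in lot batch 2 the difference was close to 0.

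Ttyh1, a membrane protein of the tweety family, was at 1.25, 1.08, 1.65 and -0.59 on Cx43 KO 1 to 4, against 1.06, 1.29, 1.17 and 1.54 on WT 1 to 4. Outside Cx43 KO 4 all 7 values lay above 1. Only 1 of its 2 features gave a ratio. Aldoc, the aldolase isoform of brain in glycolysis, was at 0.38, -0.19, 0.64 and -1.07 on Cx43 KO 1 to 4, against -0.084, 0.29, 0.067 and 0.88 on WT 1 to 4. It scattered around the array median in both genotypes, so that this astrocyte gene was not set apart from the median feature. The array median is not the level of the pool. Without centring the mean of Aldoc was 0.16 in Cx43 KO and 0.50 in WT.

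The 2 secreted proteins of the list stayed above the array median on all 8 arrays. Cpe, the carboxypeptidase that trims basic residues from peptide precursors, was at 2.19, 2.36, 2.16 and 0.56 on Cx43 KO 1 to 4, against 1.37, 1.33, 1.68 and 2.28 on WT 1 to 4. Cx43 KO 1 to 3 sat close together and above WT 1 to 3, and WT 4 lay among them. Cst3, cystatin C, an inhibitor of cysteine proteases that microglia also make, was at 1.37, 1.66, 1.19 and 0.55 on Cx43 KO 1 to 4, against 0.88, 1.39, 1.15 and 1.12 on WT 1 to 4. Its Cx43 KO values enclosed the WT range on both sides.

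In the mean over arrays the 7 genes spanned from far above the array median to its level. In Cx43 KO the means were 3.73 ± 0.57 for Fabp7, 1.82 ± 0.84 for Cpe, 1.20 ± 0.59 for Sox9, 1.19 ± 0.47 for Cst3, 0.85 ± 0.99 for Ttyh1 and -0.061 ± 0.76 for Aldoc (SD, n = 4), with 1.37 ± 1.80 for Id4 (SD, n = 3). In WT they were 4.45 ± 0.18 for Fabp7, 2.08 ± 0.43 for Id4, 1.67 ± 0.44 for Cpe, 1.26 ± 0.20 for Ttyh1, 1.14 ± 0.21 for Cst3 and 0.29 ± 0.42 for Aldoc (SD, n = 4), with 1.18 ± 0.40 for Sox9 (SD, n = 3). Over Cx43 KO 1 to 3 the means were 3.95 for Fabp7, 2.24 for Cpe, 1.45 for Sox9, 1.41 for Cst3, 1.33 for Ttyh1 and 0.28 for Aldoc, and Id4 had 2.32 over Cx43 KO 1 and 3. Only Fabp7 stood clear of the next gene in WT, where its lowest array, 4.19, lay above the highest of Id4, 2.71. From Id4 down to Aldoc each gene's WT range overlapped that of its neighbour in order of the WT means. For Cst3 and Aldoc this was only just so, with Cst3 at 0.880 on WT 1 and Aldoc at 0.881 on WT 4. On each single WT array Cst3 lay above Aldoc. Among 2163 named genes ranked by mean ratio over the 8 arrays, Cpe was at place 49, Cst3 at 165, Ttyh1 at 200 and Aldoc at 999. Of the 5 genes with 8 values, Fabp7, Cpe and Cst3 lay above the array median on every array, as did 25.8% of named genes. Fabp7 alone lay at least 2-fold above it on every array, as did 3.28% of named genes. The side of the pool on which a gene lies rests on 11 genes of adult lung, stomach, liver, heart, kidney and spleen, of which 9 were below 0 on every array with a ratio. Among them were the surfactant gene Sftpc at a mean of -5.83 and the gastric gene Gkn2 at -5.44, while the antigen presentation genes H2-Aa at 0.071 and H2-Eb1 at -0.15 were not clearly on either side.

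The SD of all 5 genes with 8 values was larger in Cx43 KO than in WT, as it was for 58.4% of 2163 named genes. Ttyh1 had an SD of 0.99 in Cx43 KO and 0.20 in WT, and its Cx43 KO spread exceeded that of 96.2% of genes. Cpe had 0.84 in Cx43 KO and 0.44 in WT. The order changed when Cx43 KO 4 was left out. The SD of Cpe over Cx43 KO 1 to 3 was 0.11, below its WT value, and that of Ttyh1 was 0.29. Then 3 of the 5 genes had a larger SD in Cx43 KO, against 42.5% of all genes. Fabp7 was among them, at 0.44 over Cx43 KO 1 to 3 and 0.18 in WT.

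The shift on Cx43 KO 4 was uneven between the genes. Relative to the mean of the other Cx43 KO arrays it was -2.84 for Id4, -1.92 for Ttyh1, -1.68 for Cpe, -1.35 for Aldoc, -0.98 for Sox9, -0.89 for Fabp7 and -0.86 for Cst3. Over 2163 named genes the median of this shift was -0.041 and its 5th percentile -1.12, so that Id4, Ttyh1, Cpe and Aldoc lay beyond that percentile and the other 3 inside it. Only 16 of these genes were shifted further down than Ttyh1. With 1 array, none of these shifts has a replicate check.

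**Figure D2:**
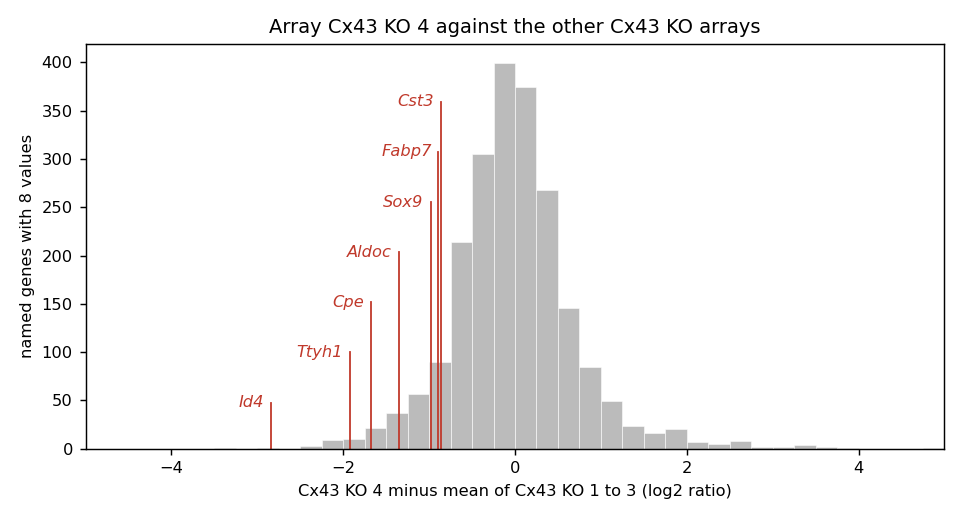
Histogram of the shift of Cx43 KO 4 from the mean of Cx43 KO 1 to 3 (horizontal axis, log2 ratio) over 2163 named genes with 8 values, with the 7 astroglial genes marked by red lines whose heights carry no value. All 7 lie left of 0, from -0.86 for Cst3 to -2.84 for Id4, which has 7 values and is compared with Cx43 KO 1 and 3.

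Some other astrocyte and radial glia genes were also lowest on this array. Of 69 such genes listed, 19 were on the array, 9 of them with no ratio on any array, among them the glutamate transporter Slc1a2. The mean of the 5 with 8 values was 1.71, 0.89, 1.21 and 0.062 on Cx43 KO 1 to 4, against 0.85, 1.09, 0.95 and 1.17 on WT 1 to 4. Of these 5, named here after their values were seen, Gpm6b, Mt1, Nfib and Phgdh were lowest on Cx43 KO 4 and Nfix was not, against 22.8% of named genes with 8 values. Of the 8 that could be tested 4 were lowest there, and Slc6a9, Glud1 and Zbtb20, with 7 values each, were lowest on Cx43 KO 2 or WT 1. Gpm6b, a membrane proteolipid, was at 0.39 there, where the lowest other array had 1.78.

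Markers of other cells moved on the same array. Microglia and macrophage markers, 7 genes with 8 values, averaged 0.047, 0.31, 1.22 and 2.51 on Cx43 KO 1 to 4, against 0.70, 1.34, 1.38 and 0.73 on WT 1 to 4, and 5 of the 7 were highest on Cx43 KO 4. Adgre1, a surface antigen of macrophages, reached 4.91 there, and Cd68 reached 3.78. Lgmn and Tyrobp went otherwise. Lgmn was at 0.68 on Cx43 KO 4 and highest on Cx43 KO 3, at 1.59. Tyrobp was at 1.06 on Cx43 KO 4 and highest on WT 2, at 1.29. The markers Ctss, Fcer1g, Ptprc and Coro1a had no ratio on any array. Reactive astrocyte markers, 4 genes, averaged 1.24, 1.29, 1.20 and 2.54 on Cx43 KO 1 to 4, against 0.69, 1.22, 1.03 and 1.07 on WT 1 to 4. Of these 4, Steap4 at 3.57 and Cd44 at 2.88 were highest on Cx43 KO 4, whereas Stat3 was highest on Cx43 KO 3 and Tm4sf1 on WT 3. How many of all named genes were highest on Cx43 KO 4 was not counted, so these counts have no background. Over named genes with 8 values the 95th percentile of the shift on that array was 1.18. Fibroblast, meningeal and mural markers, 6 genes, averaged -1.50, -1.15, 0.26 and 1.64 on Cx43 KO 1 to 4, against 1.51, 0.19, 0.56 and 0.83 on WT 1 to 4. Their mean was thus also highest on Cx43 KO 4, though close to WT 1. There 4 of the 6 were highest, a count that again has no background, while Ptgds and Col6a3 were highest on WT 1. For neurons, 3 genes averaged -0.60, -0.17, -0.55 and -1.88 on Cx43 KO 1 to 4, against -1.10, -0.19, -0.86 and -0.33 on WT 1 to 4. Cnp, the only oligodendrocyte gene with 8 values, was at 0.13, -0.057, -0.049 and -1.53 on Cx43 KO 1 to 4, against -0.42, 0.18, -0.13 and -0.062 on WT 1 to 4. The neuronal mean and Cnp were thus lowest on Cx43 KO 4, but among neuronal genes Nefm was lowest on WT 1, at -2.73, and the oligodendrocyte precursor gene Pdgfra was lowest on Cx43 KO 1, at -1.69. No endothelial marker had 8 values, and Cdh5 was the only one tested. The part of these cells in the shift of the astroglial genes was not tested, and in such RNA fewer cells of a type and less RNA per cell cannot be told apart.

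**Figure D3:**
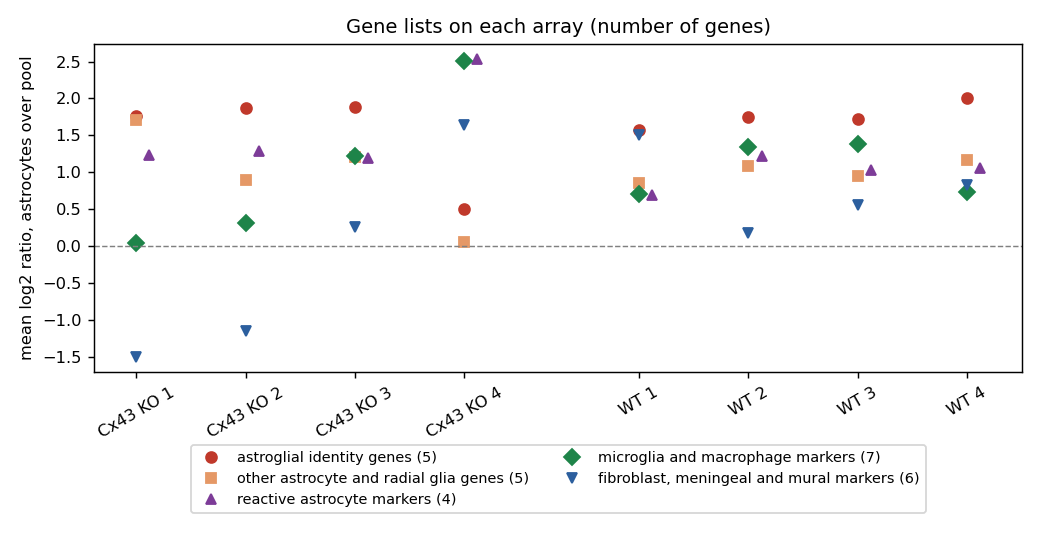
Mean log2 ratio over the pool (vertical axis) of the astroglial genes and 4 lists of other genes on each array, Cx43 KO 1 to 4 left and WT 1 to 4 right, with the number of genes in brackets. On Cx43 KO 4 the astroglial mean of 0.50 is the lowest of the 8 arrays, and the microglial mean of 2.51 and the reactive mean of 2.54 are the highest. The fibroblast, meningeal and mural mean is also highest there, at 1.64, with WT 1 at 1.51.

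The comparison of genotypes asked whether astroglial genes differ when connexin43 is missing. None of the 7 passed in limma, a linear model fitted over 3505 genes and unnamed features, at an adjusted p of 0.05, where 0% of the whole table passed (0 of 3505, with 263 at an unadjusted p under 0.05, or 7.5%). Of the 7 genes 4 lay lower in Cx43 KO, against 47.4% of the whole table. The median difference of the 7, Cx43 KO minus WT, was -0.35, and that of the whole table was 0.017. Without Cx43 KO 4 and with at least 2 values per genotype, 2 of the 7 lay lower. Their median was then 0.24, against 0.029 for the 4132 genes and features tested. All 7 were lowest on the array left out, so each difference had to rise. The share lower is at hand only for the model with at least 3 values, 46.5% of 3143, which left out Id4. That model without Cx43 KO 4 called 0.127% of the table, and none of the 6 astroglial genes it could test. At an unadjusted p under 0.05 it held 12.2% of the table and, of the 6, Cpe alone. Values of single genes without that array come from a model that asked for at least 2 values per genotype, a setting added after seeing the data, so that Id4 is included.

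Fabp7 differed by -0.72 (SE 0.27, 95% interval -1.31 to -0.12, limma unadjusted p = 0.0229, adjusted p = 0.655). It was the only 1 of the 7 with an unadjusted p under 0.05, and it did not pass after adjustment. Its difference was below 0 in each of 23 alternative settings, from -1.39 with scale normalization to -0.49 without Cx43 KO 4. In the RefSeq gene table Fabp7 lies on chromosome 10, as does Gja1, the gene of connexin43, with 3 protein-coding genes between their starts. It was the tested gene nearest to Gja1, for which the annotation names 0 features, and so no transcript level of the deleted gene was at hand to check the genotype labels.

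Cpe was further above WT when Cx43 KO 4, its lowest value, was left out, though it passed in neither case. Over all arrays it differed by 0.15 (SE 0.39, limma adjusted p = 0.955), and without Cx43 KO 4 by 0.57 (SE 0.24, unadjusted p = 0.0397, adjusted p = 0.435). The p-values without that array come after the lowest value of Cpe was removed, so they lend no support to a difference. Within lot batches 1 to 4 Cpe differed by 0.82, 1.02, 0.48 and -1.72. It was higher in Cx43 KO in 3 of 4 lot batches, and the exception was the lot batch of Cx43 KO 4.

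The direction of Id4 and Ttyh1 turned without Cx43 KO 4. Id4 differed by -0.71 (95% interval -2.24 to 0.82) over all arrays and by 0.24 (-0.68 to 1.15) without it, where 2 Cx43 KO arrays remained. Ttyh1 differed by -0.42 (95% interval -1.33 to 0.49) over all arrays and by 0.064 (-0.39 to 0.52) without it. Aldoc differed by -0.35 (95% interval -1.15 to 0.45) and, without it, by -0.011 (-0.62 to 0.60). Sox9 and Cst3 differed by 0.023 and 0.056 over all arrays, with 95% intervals of -0.72 to 0.77 and -0.48 to 0.59. Both turned with scale and quantile normalization. Without Cx43 KO 4 Sox9 differed by 0.27 (-0.35 to 0.89) and Cst3 by 0.27 (-0.17 to 0.71). Each of these intervals spans 0 and leaves room for differences in either direction. Of the 5 genes with 8 values, 0 had Cx43 KO and WT arrays that did not overlap, against 3.88% of named genes.

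**Figure D4:**
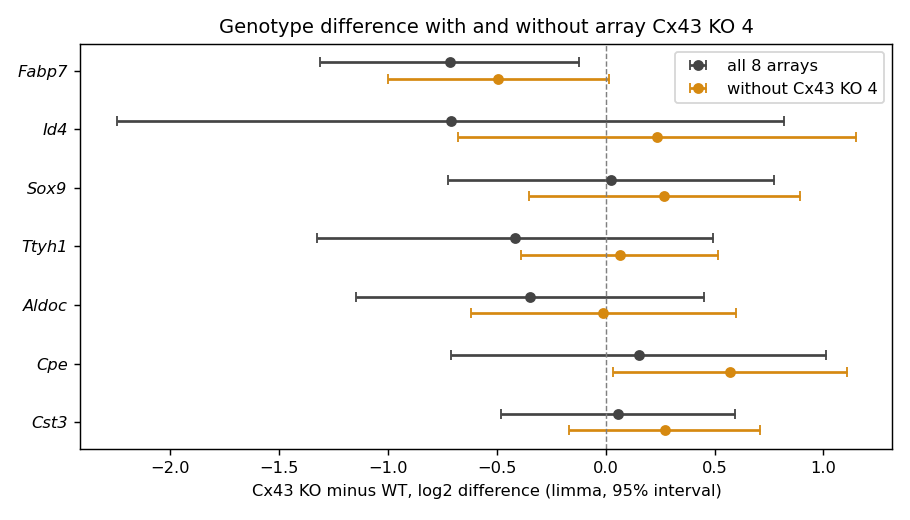
Cx43 KO minus WT difference (horizontal axis, log2, limma with 95% interval) for each gene over all 8 arrays (grey) and without Cx43 KO 4 (orange, at least 2 values per genotype). Fabp7 is below 0 in both, at -0.72 and -0.49, but its interval without Cx43 KO 4 spans 0. Id4 and Ttyh1 change side.

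Covariation between the genes was measured as Pearson's r and Spearman's rho over the arrays, with two-sided exact permutation tests. For the 10 pairs of the 5 genes with 8 values, r lay above 0 in all 10 (51.4% of all pairs of named genes) and at 0.7 or more in 4 (5.09% of all pairs). The median r was 0.64, against 0.017 for all pairs. Without Cx43 KO 4, r lay above 0 in 4 pairs (51.7% of all pairs) and at 0.7 or more in 1 (5.96%), and the median was -0.14. All pairs share the same 8 arrays and the centring of each array.

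Ttyh1 and Aldoc were the exception. Over 8 arrays r was 0.93 (exact permutation p = 0.000546, adjusted over 10 pairs p = 0.00546) and rho was 0.93 (exact p = 0.00223, adjusted p = 0.0223). The 2 genes followed each other also without Cx43 KO 4 (r = 0.92, n = 7, exact p = 0.00456, adjusted p = 0.0456) and without the 2 arrays farthest from the median of Ttyh1 (r = 0.98, n = 6, exact p = 0.00556). As deviations from the genotype means, permuted within genotypes, r was 0.92 (exact p = 0.00174, adjusted p = 0.0174). Both genes were highest in their genotype on Cx43 KO 3 and WT 4 and lowest on Cx43 KO 4 and WT 1.

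For Cpe, correlations with Ttyh1 (r = 0.80, rho = 0.38), Aldoc (r = 0.75, rho = 0.40) and Cst3 (r = 0.76, rho = 0.50) had exact p of 0.0261, 0.0312 and 0.0272 for r, each 0.0781 after adjustment, and 0.36, 0.327 and 0.216 for rho. Without Cx43 KO 4 these r were 0.39, 0.37 and 0.46, and without the 2 arrays farthest from the median of the first gene named in each pair (Ttyh1, Aldoc and Cpe) they were 0.31, 0.17 and 0.75. None passed after adjustment over all 8 arrays. Each was lower without Cx43 KO 4, and only Cpe with Cst3 kept its r without the 2 farthest arrays. Leaving out other arrays brought them past the threshold, with r = 0.87 for Ttyh1 and Cpe and 0.93 for Aldoc and Cpe without Cx43 KO 2 (exact permutation tests, adjusted p = 0.0351 and 0.0228). For Cpe and Cst3 r was 0.89 without WT 2 (exact permutation test, adjusted p = 0.0169). Cst3 with Ttyh1 (r = 0.68, rho = 0.38) and with Aldoc (r = 0.50, rho = 0.17) had exact p of 0.0944 and 0.195 for r and 0.36 and 0.703 for rho, and without Cx43 KO 4 r was -0.13 and -0.21.

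For Fabp7, r was above 0 with each of the others over 8 arrays, and no pair passed. Its r was 0.61 with Ttyh1, 0.37 with Aldoc, 0.32 with Cpe and 0.49 with Cst3 (exact p = 0.118, 0.371, 0.438 and 0.222), and its rho was -0.095, -0.095, -0.048 and 0.095 (exact p = 0.84, 0.84, 0.935 and 0.84). As deviations from the genotype means r was 0.56, 0.22, 0.58 and 0.78 (exact p = 0.49, 0.774, 0.434 and 0.128). Without Cx43 KO 4 its r was -0.61, -0.61, -0.60 and -0.15 (n = 7, exact p = 0.128, 0.148, 0.163 and 0.734). Fabp7 against Ttyh1 was -0.92 without the 2 arrays farthest from the median of Fabp7 (n = 6, exact p = 0.00972, adjusted p = 0.0486), so that the sign of this relation depended on which arrays were kept.

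Pairs with Id4 or Sox9, 11 in number and added after the values were seen, rest on 6 or 7 arrays. All 11 had r above 0 and 0 passed when adjusted over all 21 pairs, with 4 at an unadjusted exact p under 0.05. Id4 and Cst3 had r = 0.93 and rho = 0.75 (n = 7, exact p = 0.00536 and 0.0663, adjusted p = 0.0556 and 0.348), and Sox9 and Cpe r = 0.88 and rho = 0.82 (n = 7, exact p = 0.00794 and 0.0341, adjusted p = 0.0556 and 0.239). Without Cx43 KO 4, r was 0.76 for Id4 and Cst3 and 0.77 for Sox9 and Cpe, over 6 arrays each. Of the 10 added pairs that still had 6 arrays, 5 then had r below 0: Fabp7 with Id4 (-0.27) and Sox9 (-0.46), and Id4 with Ttyh1 (-0.31), Aldoc (-0.11) and Cpe (-0.061). Over the same 21 pairs Ttyh1 and Aldoc had an adjusted p of 0.0115 for r and 0.0469 for rho (exact permutation tests). Within 1 genotype the 4 arrays are too few for a correlation.

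**Figure D5:**
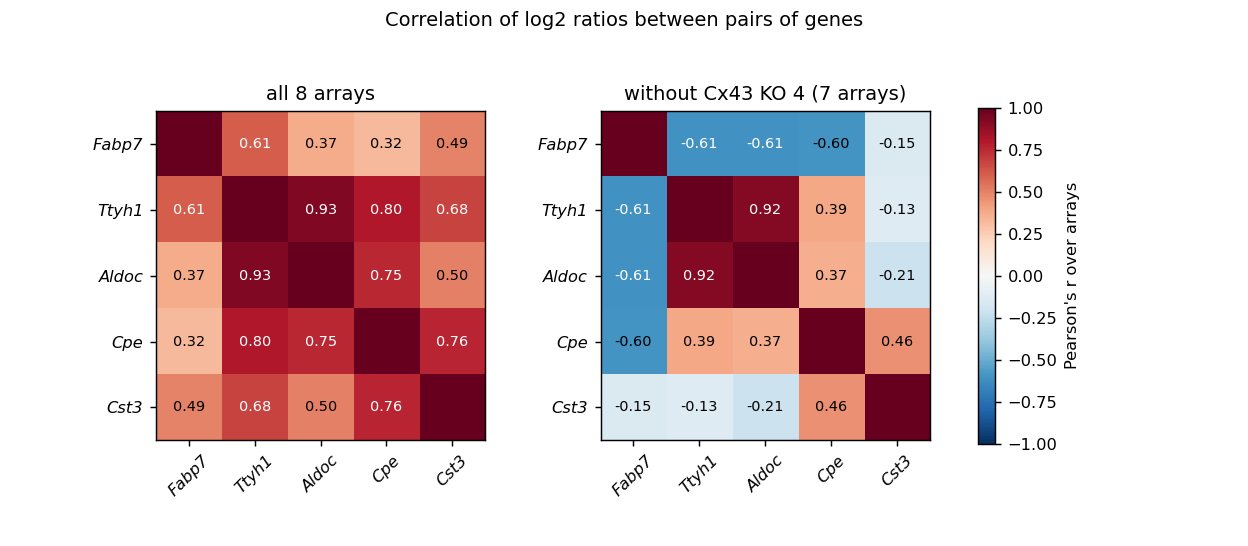
Pearson's r between the log2 ratios of each pair of the 5 genes with 8 values (colour scale from -1 to 1), over all 8 arrays (left) and without Cx43 KO 4 (right). All 10 pairs are above 0 on the left, while on the right only 4 are, with Ttyh1 and Aldoc at 0.92.

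The genes whose pattern over the 8 arrays was most like the mean of the 5 astroglial genes were Pogz (r = 0.96), Cadm3 (0.96), Fhl1 (0.96), Asrgl1 (0.96), Dlgap1 (0.96) and Ulk2 (0.95). They were chosen for this value, so no test applies. The cell adhesion gene Cadm3 was at -2.59 on Cx43 KO 4 and between -1.58 and -0.72 elsewhere. Over the other 7 arrays the likeness was 0.93 for Pogz, 0.74 for Cadm3 and 0.71 for Ulk2. It was only 0.52 for Fhl1, 0.51 for Asrgl1 and 0.36 for Dlgap1, a scaffold protein of synapses. The opposite pattern was strongest in Esyt1 (r = -0.99), Tap1 (-0.97), which carries peptides for antigen presentation, and Klf6 (-0.97). Without Cx43 KO 4 these values were -0.92, -0.80 and -0.81. Tap1 was at 2.04 on Cx43 KO 4 and between -0.53 and 0.53 elsewhere.

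For single genes, the nearest patterns were Fam76b (r = 0.96) and the lysosomal sulfatase Arsb (0.94) for Fabp7, Cadm3 (0.96) and Hgh1 (0.95) for Ttyh1, Cadm4 (0.94) and the endosomal GTPase Rab9 (0.93) for Aldoc, Cystm1 (0.98) and the kinase Nek9 (0.98) for Cpe, and Garem1 (0.99) and Tmem163 (0.98) for Cst3. Without Cx43 KO 4 these 10 values were lower, from 0.76 for Cadm3 to 0.98 for Garem1. Cadm3 appeared for both Ttyh1 and the mean of the 5, and no other gene appeared more than once.

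Genes that work with the 7 were few on the arrays, and 0 of those tested passed in either direction. In each list below, the named genes are the 3, or fewer, with the smallest p. As a background for the counts, 47.4% of the whole table lay lower in Cx43 KO. Without Cx43 KO 4 it was 46.5%, with at least 3 values per genotype. Nfib and Nfix stand both in the astrocyte list and in the Sox list. Lgmn stands both among the cysteine proteases and among the microglial markers. Of the other astrocyte and radial glia genes 8 were tested, 4 higher and 4 lower in Cx43 KO, with a median difference of 0.016. The glycine transporter Slc6a9 differed by -0.40, the glutamate dehydrogenase Glud1 by 0.52 and the transcription factor Zbtb20 by 0.69 (limma adjusted p = 0.696, 0.706 and 0.826). When Cx43 KO 4 was left out, 6 of the 8 were higher and the median was 0.39, with Zbtb20 at 1.23 (limma adjusted p = 0.406). Of the partners of Id4, helix-loop-helix and bone morphogenetic protein genes, 5 were tested, 4 higher and 1 lower, with Smad1 at 0.30, Tcf4 at 0.42 and Smad5 at 0.18. Tcf4, an E protein that Id proteins bind, was lowest on Cx43 KO 4 at 0.15, and without that array it differed by 0.79 (limma adjusted p = 0.369). The Sox and gliogenic factors left 2 tested, Nfib at 0.18 and Nfix at -0.15, and without Cx43 KO 4 at 0.51 and 0.0099.

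Ttyh2, the relative of Ttyh1, differed by -0.36. It was lowest on WT 1, at 0.679, but nearly tied with Cx43 KO 4, at 0.687. In the list of aldolases and sugar metabolism, which holds glycogen enzymes beside those of glycolysis, 4 of 4 tested lay higher in Cx43 KO, while 47.4% of the whole table lay lower. The median difference was 0.42, or 0.26 without Cx43 KO 4, and the named genes were the muscle-type aldolase Aldoa at 0.43, hexokinase Hk1 at 0.44 and glycogen synthase Gys1 at 0.40 (limma adjusted p = 0.696, 0.696 and 0.778). Aldoa was at 0.53 on Cx43 KO 4, its highest array, where Aldoc had its lowest. Of the cysteine proteases and cystatins around Cst3 6 were tested, 2 higher and 4 lower, with legumain (Lgmn) at 0.46, Csta1 at -0.27 and cathepsin L (Ctsl) at 0.13. Ctsl was at 1.59 on Cx43 KO 4, above every other array. Of the peptide processing genes beside Cpe 3 were tested and 3 were higher, with Nucb2 at 0.42, neuropeptide Y (Npy) at 0.35 and the related carboxypeptidase Cpd at 0.42. Cpd was at 2.62 on Cx43 KO 4, above its next highest array at 0.98, and so went opposite to Cpe there. Without that array Cpd differed by -0.068, Ctsl by -0.096 and Nucb2 by 0.049. Ppard, a nuclear receptor for fatty acids and the only gene tested beside Fabp7 in its list, differed by -0.15, and by -0.49 without Cx43 KO 4. None of the listed genes passed without that array either.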

How the data were processed

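The 8 arrays carried 9568 features, and the authors deposited 1 signed log ratio of the 2 channels per feature and array, read here as log2. The logarithm's base, dyes, background correction and within-array normalization were not given in the sources used here. Exact 0, 42.4% to 63.4% of features, was read as missing. Features came named in the platform annotation: 7307 had 1 symbol, 318 had several and 1943 had none. Each array was centred on its median, and features of a gene were averaged. Genes with at least 3 values per genotype entered limma 3.58.1 (R 4.3.3), as a two-sided test with no block, adjusted by Benjamini-Hochberg over 3505 genes and unnamed features. The fit was tested on simulated data. Centring, scaling, exact 0, features, weights, filters, the lot batch and single arrays were varied. The number of arrays and the missing ratios limit the precision.

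Correlations used exact permutation tests over all 40320 pairings of 8 arrays. The members, lists and tests were chosen with earlier results of these data known. Named genes were the 7 members, the genes with the highest (6) and lowest (3) correlation with their mean, the 2 nearest to each member with 8 values, the 3 smallest p of each pathway list, and markers. Per the labels, arrays of 1 number share a lot batch and form pairs, and their deviations from genotype means correlated across genes at -0.20, 0.19, -0.14 and -0.18 for numbers 1 to 4.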

Additional observations from a re-analysis of the deposited data

Results flagged for a closer look

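Of 24 groups of 4 arrays examined, 3 held an array far from the others by Dixon's 95% critical value, and chance marks about 1 group in 20. All 3 concern Cx43 KO 4, and the mean of the 5 astroglial genes includes Cpe. The groups are therefore not independent, and their count cannot show an excess over that rate. Cpe was at 0.56 there, with the nearest Cx43 KO array at 2.16. The mean of the 5 astroglial genes with 8 values was 0.50, with the nearest at 1.76. The mean of 4 reactive astrocyte markers was 2.54, with the nearest at 1.29, in the opposite direction. The other 6 astroglial genes were not marked in either genotype, with Id4 in Cx43 KO and Sox9 in WT left out for having 3 values.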

How the results depend on the processing

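None of the 7 genes passed in any setting in which it was tested. Over all genes and features, leaving out 1 array gave 0 to 4 calls: 4 without Cx43 KO 4 (Cd59a, Slc13a4 and 2 unnamed features; 0 when only 2 values per genotype were required), 1 without WT 2, and 0 otherwise. A replicate block for the lot batch gave 0 calls, with 196 at an unadjusted p under 0.05, and changed no other call.

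Of 145 alternative values of a genotype difference, 24 turned in direction. Scale normalization put Sox9, Cpe and Cst3 at -0.11, -0.097 and -0.13, and quantile normalization at -0.13, -0.079 and -0.11. Sox9 was at -0.087 with the replicate block, and Id4 at 0.040 with array weights. Leaving out 1 array gave -0.17 to 0.27 for Sox9, -0.68 to 0.064 for Ttyh1, -0.029 to 0.57 for Cpe and -0.099 to 0.27 for Cst3. With at least 2 values per genotype, chosen after seeing the data, Id4 and Ttyh1 were at 0.24 and 0.064 without Cx43 KO 4. Leaving out a lot batch turned Cpe (-0.072 without 1, -0.14 without 2), Cst3 (-0.087 and -0.015), Sox9 (-0.087 without 2), and Ttyh1 and Aldoc (0.15 and 0.19 without 4). Scale normalization moved Fabp7 to -1.39.

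The pairs past an adjusted p of 0.05 were 1, or 2 without the 2 arrays farthest from the median, and 1 to 3 when leaving out 1 array (3 without Cx43 KO 2, 2 without WT 2). Spearman's rho was -0.095 for Fabp7 with Ttyh1 and with Aldoc, and -0.048 with Cpe. Without the 2 farthest arrays r was -0.92, -0.74, -0.58 and -0.0072 for Fabp7 with Ttyh1, Aldoc, Cpe and Cst3, and -0.083 and -0.073 for Cst3 with Ttyh1 and Aldoc. Leaving out 1 array gave -0.61 to 0.75, -0.61 to 0.49, -0.60 to 0.47, -0.15 to 0.72, -0.13 to 0.83 and -0.21 to 0.79 for these 6 pairs, each lowest without Cx43 KO 4. The genes above the median on every array were 4, and 4 to 6 when leaving out 1 array. The causes were not tested.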

Other observations

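Within the marker lists the prostaglandin D synthase gene Ptgds, made by meninges and glia, had the smallest limma p of the fibroblast, meningeal and mural genes. It was at -4.26, -4.04, -0.46 and -1.23 on Cx43 KO 1 to 4, against 0.72, -0.86, -0.41 and 0.35 on WT 1 to 4. Cx43 KO 1 and 2 lay far below the other 6 arrays, and the difference of -2.45 (SE 0.80, limma adjusted p = 0.648) did not pass. The same arrays were lowest in the mean of the 6 fibroblast, meningeal and mural markers, at -1.50 and -1.15. Pdgfra, a receptor of oligodendrocyte precursors and mesenchymal cells, was at -1.69, -1.50 and 0.24 on Cx43 KO 1, 3 and 4, against 1.84, 0.05 and 1.96 on WT 1, 2 and 4. Lcn2, a secreted protein of reactive astrocytes, was at -2.45, -1.31, -0.33 and 4.32 on Cx43 KO 1 to 4, against -2.54, -2.10 and -1.05 on WT 1, 3 and 4, and so stood highest on Cx43 KO 4, where the 7 astroglial genes were lowest.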
